A study of Rattus norvegicus with 20 samples.

Results

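Transcripts of 87 neurotransmitter receptor genes were described in cultured rat progenitor cells before and after 2 treatments that were meant to turn them into glia or neurons. The genes were taken by their symbols, and they cover 13 families: the AMPA, kainate, NMDA and delta subunits of ionotropic glutamate receptors, the metabotropic glutamate receptors, GABA-A and glycine receptor subunits, muscarinic and nicotinic acetylcholine receptors, serotonin receptors, alpha- and beta-adrenergic receptors, and dopamine receptors. They are 87 of the 4736 genes that an Affymetrix rat array names with a single symbol. Where several probe sets, the short probe groups that each report 1 transcript, belonged to a gene, the brightest on average stood for it. The rule itself uses no measured difference, but the members were chosen with earlier results of these data known.

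The series holds 20 arrays of total RNA in 4 groups. HD are progenitors at high density (6 arrays), and LD are CCg progenitors at low density (4 arrays). LD cells given FBS, the usual abbreviation of fetal bovine serum, are labelled astrocytes (6 arrays). LD cells given RA/Fsk, the usual abbreviations of retinoic acid and forskolin, are labelled neurons (4 arrays). A number in each label ties some arrays of a group to each other, and such arrays were averaged. Each number is called a culture here, and there were 4 for FBS, 4 for RA/Fsk, 3 for HD and 3 for LD. The labels used here give no strain, age, tissue, dose or treatment time, and they do not expand CCg. The HD labels do not mention CCg, so density and CCg cannot be told apart in HD against LD. The labels also do not say whether the numbers mark separate cultures, so p-values measure only the spread between these samples. All values come from bulk RNA, in which fewer cells of a type and less RNA per cell cannot be told apart.

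Ionotropic receptors are channels that open when a transmitter binds, and their subunits decide which ions pass and how long the channel stays open. Metabotropic receptors signal through G proteins and change second messengers such as cyclic AMP and calcium. Progenitors and glia carry many of the receptors that neurons use at synapses, and the subunit set is known to change as cells mature.

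Forskolin raises cyclic AMP, which acts through factors that bind the motif TGACG, and retinoic acid acts through receptors that bind AGGTCA. The bases upstream of the gene start were therefore read for these letters on both strands. A promoter entry of RefSeq build GRCr8 was at hand for 65 of the 87 genes, and its 250 bases before the start were searched. TGACG or its reverse complement CGTCA stood in 10 of the 65 (15.4%) against 18.2% of all 33469 promoters. The full palindrome TGACGTCA, which contains both, stood in 0 of the 65 against 1.59%, and AGGTCA or TGACCT in 4 (6.15%) against 14.1%. Among the 8 genes that passed a test below, 5 had an entry, and Adrb1, Chrm1 and Chrm3 held TGACG, which is in capitals here. Of the 2 genes that were higher in RA/Fsk than in FBS, Chrm3 holds TGACG and Grik4, shown beside it, holds neither motif. Chrm3 was not higher in RA/Fsk than in LD (log2 difference -0.60), and Adrb1 and Chrm1 passed only in FBS against LD. A match describes letters only. Gria2, Grid1 and Grin2a had no entry.
Adrb1, chr1:265776853-265777102, plus strand: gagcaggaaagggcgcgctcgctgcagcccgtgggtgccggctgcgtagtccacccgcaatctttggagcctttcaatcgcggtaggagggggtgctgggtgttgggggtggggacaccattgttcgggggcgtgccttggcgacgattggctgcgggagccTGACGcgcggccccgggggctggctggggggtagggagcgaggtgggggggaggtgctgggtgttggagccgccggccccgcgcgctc
Chrm1, chr1:214996109-214996358, plus strand: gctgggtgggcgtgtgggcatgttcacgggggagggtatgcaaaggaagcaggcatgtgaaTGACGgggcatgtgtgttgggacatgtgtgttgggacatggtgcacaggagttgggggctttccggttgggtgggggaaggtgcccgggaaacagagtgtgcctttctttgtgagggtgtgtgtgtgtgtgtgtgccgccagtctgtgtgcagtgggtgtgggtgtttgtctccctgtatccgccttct
Chrm3, chr17:64696677-64696926, plus strand: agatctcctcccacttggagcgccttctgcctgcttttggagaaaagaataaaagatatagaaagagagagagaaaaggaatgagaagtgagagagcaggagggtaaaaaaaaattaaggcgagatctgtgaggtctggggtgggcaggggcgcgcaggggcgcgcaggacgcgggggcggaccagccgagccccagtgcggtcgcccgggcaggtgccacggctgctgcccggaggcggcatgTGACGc
Grik4, chr8:52102064-52102313, minus strand: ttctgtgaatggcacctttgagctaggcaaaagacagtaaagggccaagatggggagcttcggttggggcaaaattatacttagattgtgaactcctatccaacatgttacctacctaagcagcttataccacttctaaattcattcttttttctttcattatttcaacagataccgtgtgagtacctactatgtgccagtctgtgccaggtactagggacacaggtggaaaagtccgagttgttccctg

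Levels are the deposited intensities, in arbitrary units, and group means are averages of log2(intensity + 4.99) turned back into intensities. The median of all values was 49.9, which is not a detection limit, and detection calls were not used here. In all 4 groups, 18 of the 87 receptor genes (20.7%) had a mean at or above it, against 49% of the 4736 genes. In at least 1 group the counts were 40 (46%) and 62.9%, and 47 receptor genes stayed below it throughout. Of the 6 NMDA subunits, 4 lay at or above 49.9 in every group (Grin1, Grin2b, Grin2c and Grin2d). Of the 15 GABA-A subunits only Gabrd was, and of the 3 glycine receptor subunits none reached it in any group. By group, 36 receptor genes reached 49.9 in LD, 28 in FBS, 28 in RA/Fsk and 23 in HD.

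**Figure D1:**
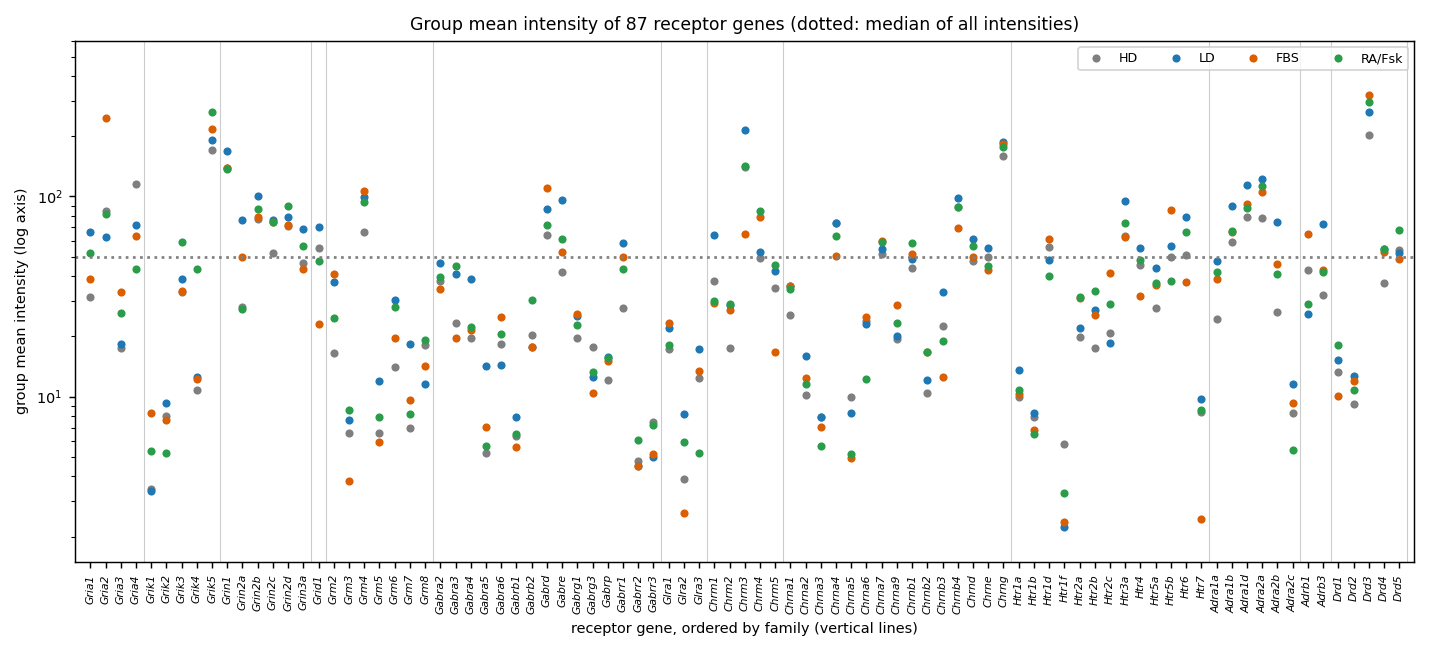
Group mean intensity (log axis, arbitrary units) of each of the 87 receptor genes, ordered by family, with one point per group and a dotted line at the median of all values, 49.9. Most points lie below the line, and Gria2 in FBS stands far above its own other groups.

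The LD cultures stood apart in control probe sets that measure no rat gene. The mean of 9 bacterial hybridisation controls, which are added to every sample alike, was lower than in LD by 0.62 log2 in HD, 0.81 in FBS and 0.51 in RA/Fsk. The 2-sided exact permutation p was 0.1, 0.0286 and 0.0571 in that order. The smallest values these group sizes allow are 0.1 for 3 against 3 cultures and 0.0286 for 3 against 4. The mean of 15 antisense controls was 0.31 lower in HD (exact p = 0.2), 0.32 lower in FBS (exact p = 0.0286) and 0.01 higher in RA/Fsk (exact p = 0.943). The signal of GAPDH at the 5′ end minus that at the 3′ end, a measure of RNA quality, was higher than in LD by 0.26 log2 in HD (exact p = 0.1), 0.27 in FBS (exact p = 0.0286) and 0.04 in RA/Fsk (exact p = 0.714). The median level of the 87 receptor genes differed from LD by -0.46 in HD (exact p = 0.1), -0.21 in FBS (exact p = 0.229) and -0.11 in RA/Fsk (exact p = 0.714). Both sets of controls were lower, like the receptor genes, in HD and FBS, and the GAPDH measure was higher there. With either as a covariate the receptor medians moved, as given with the medians below.

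**Figure D2:**
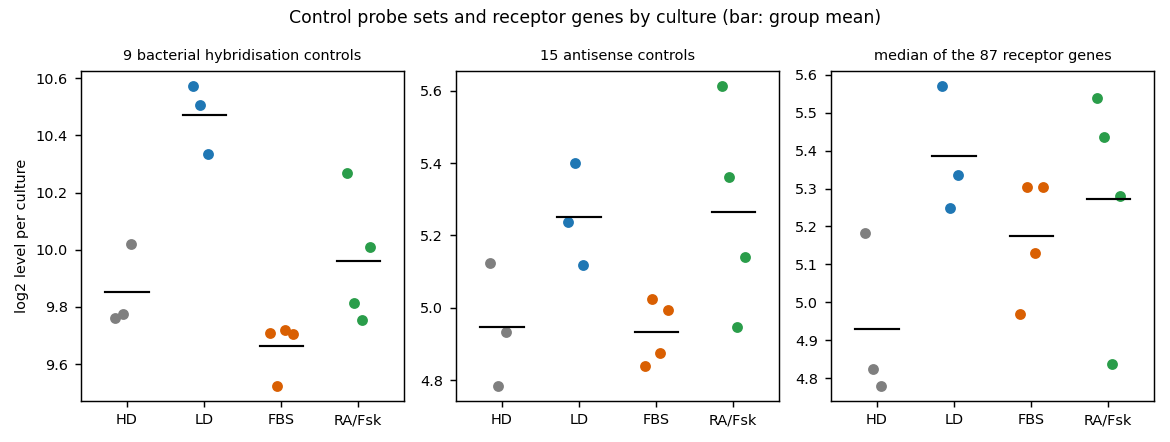
Level per culture (log2) of 9 bacterial hybridisation controls, of 15 antisense controls and of the median receptor gene, with one point per culture and a bar at the group mean. The 3 LD cultures lie above every other culture in the first panel, and the group mean of the receptor medians is lowest in HD.

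Differences were tested with limma over all 8740 rat probe sets, and genes with an adjusted p (Benjamini-Hochberg) under 0.05 passed. They are given as log2 of the first group minus the second, on the log2(intensity + 4.99) scale, with the standard error (SE), and this scale understates the change of dim genes. The comparison of FBS with LD asks which receptor genes differ once the cells have been treated towards astrocytes. Gria2 and Adrb1 rose and Chrm1, Chrm3 and Grid1 fell. The 2 that rose are 2.3% of the receptor genes, against 13.6% of all genes, and the 3 that fell are 3.45% against 12.3%. Fewer receptor genes (34.5%) than genes of the array (56.9%) had a mean above that of the median probe set. Among these brighter genes, 2 of 30 receptor genes (6.67%) passed in either direction against 38.2% of all such genes. Among the dimmer genes 3 of 57 passed (5.26%) against 9.7%. Cultures of FBS and LD did not overlap for 17 receptor genes (19.5%) against 36.7% of all genes, and 13 (14.9%) had an unadjusted p under 0.05 against 35.1%. With quantile normalisation 1 rose and 7 fell, and with median centring 1 rose and 6 fell.

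The comparison of RA/Fsk with LD asks the same for the cells treated towards neurons. Here 0 receptor genes rose, against 5.62% of all genes, and Grin2a and Glra3 fell, which is 2.3% against 3.32%. Cultures did not overlap for Adra1b, Chrm4, Grik2, Grik4 and Grin2a, 5.75% of receptor genes against 16.9%. At an unadjusted p under 0.05 there were 7 (8.05%) against 21.5%, and of these Chrm4, Grik4 and Grik5 were higher in RA/Fsk. With quantile normalisation Grik4 also passed, so that 1 rose and 2 fell. Deviations of RA/Fsk and LD cultures of the same number had r = 0.108 to 0.327, and cultures of different numbers were not correlated for comparison. Pairing by number is thus not settled, and the main fit left it out. With the replicate number as a block, neither fall passed, and Grik4 (1.59, adjusted p = 0.0409) and Chrm1 (-1.15, adjusted p = 0.0293) passed in their place. Both treatments were compared with the same 3 LD cultures.

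Between the treatments, Grik4 and Chrm3 were higher in RA/Fsk than in FBS, 2.3% of receptor genes against 8.95% of all genes. Gria2 was lower, 1.15% against 10.4%. Cultures did not overlap for 8 receptor genes (9.2%) against 22.9%, namely Adrb1, Chrm3, Gabrb2, Glra2, Gria2, Grik4, Htr5b and Htr7. At an unadjusted p under 0.05 there were 12 (13.8%) against 29.4%.

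In HD against LD 0 of the 87 receptor genes passed in limma, where 0.317% of all genes were higher and 0.148% lower. At an unadjusted p under 0.05 there were 10 (11.5%) against 12.6% of all genes, and 14 had cultures that did not overlap (16.1%) against 18.8%. Of these 14, Htr1f alone was higher in HD. The other 13 were Adra1b, Adra1d, Adra2b, Adrb3, Gabra4, Gabre, Gabrr1, Grin2a, Grm6, Grm7, Htr2b, Htr3a and Htr5a. The median difference of the receptor genes was -0.28 against -0.08 over all genes, and 70 of 87 (80.5%) lay below 0 against 59%. The medians were -0.19 against -0.07 in FBS against LD, -0.16 against -0.03 in RA/Fsk against LD, and 0.05 for both in RA/Fsk against FBS. With the hybridisation controls as a covariate, an alternative chosen after seeing the data, the receptor medians were 0.02 in HD, 0.15 in FBS and 0.12 in RA/Fsk against LD, all turned in sign, beside 0.05, 0.13 and 0.08 over all probe sets. With the GAPDH measure as a covariate the receptor medians were -0.62, -0.56 and -0.18, beside -0.18, -0.24 and -0.07 over all probe sets. Without LD culture 1 they were -0.16, -0.16 and -0.0068, and without RA/Fsk culture 3 the last was 0.00084. In HD and FBS against LD the sign of the receptor median thus changed only with the hybridisation controls as a covariate. In RA/Fsk against LD it also changed without RA/Fsk culture 3. All LD cultures lay above all others in the hybridisation controls, so group and covariate are hard to tell apart in that fit. In the GAPDH measure all LD cultures lay below all HD and FBS cultures, so the same limit holds there for HD and FBS against LD. The median SE of a receptor gene was 0.38 in HD against LD and 0.36 in either treatment against LD.

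**Figure D3:**
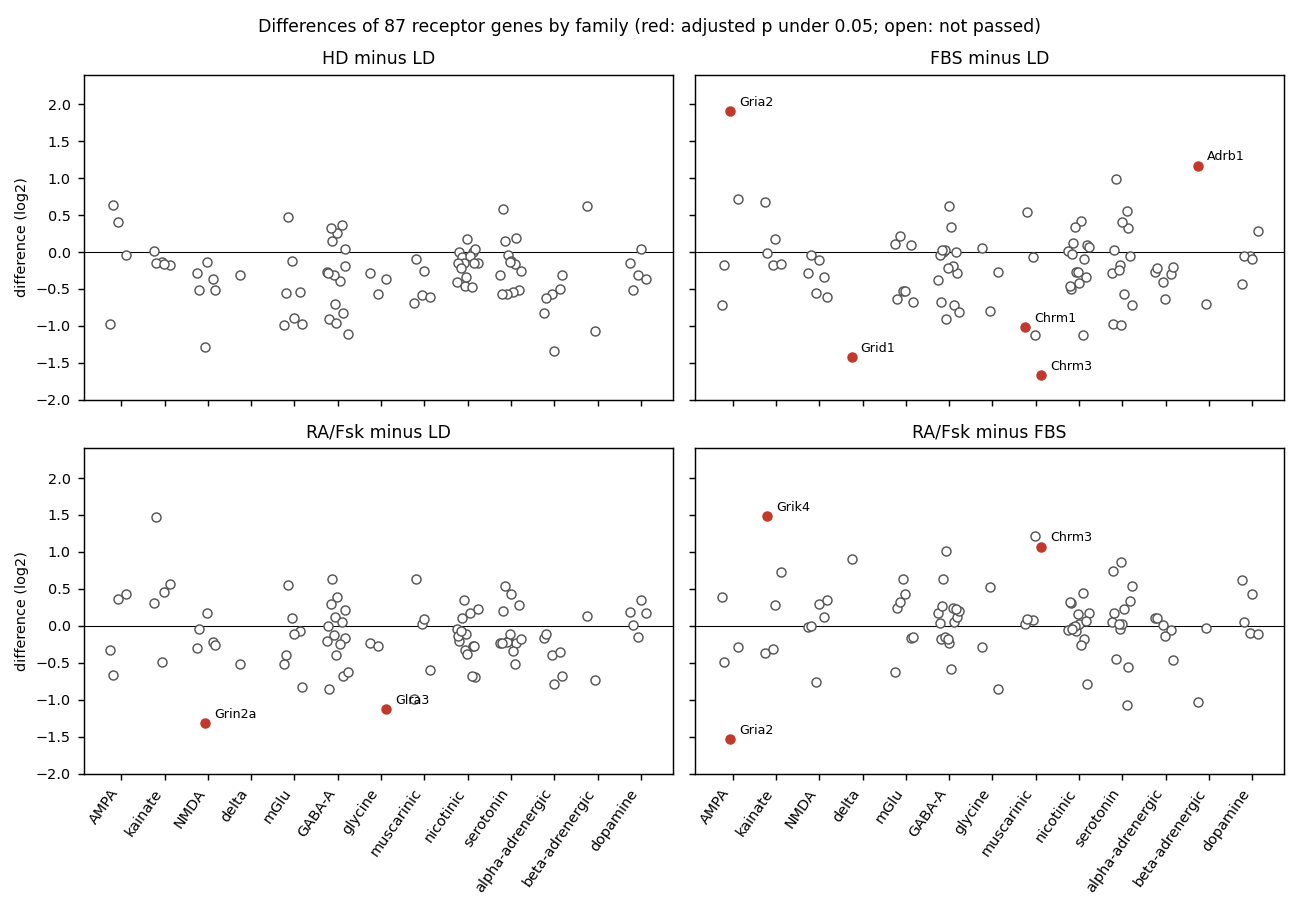
Difference of each of the 87 receptor genes (log2 intensity, vertical axis) by family in the 4 comparisons, with filled red points for genes that passed and open points for the rest. No point is filled in HD minus LD, 5 are in FBS minus LD, 2 in RA/Fsk minus LD and 3 in RA/Fsk minus FBS.

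Among the AMPA subunits, Gria2 encodes the subunit whose edited form keeps calcium out of the channel. Its level was 290.2, 234.5, 291.7 and 186.9 in the 4 FBS cultures, 59.4, 46.0 and 88.3 in LD, 76.7, 93.0, 80.7 and 78.6 in RA/Fsk, and 101.5, 77 and 77.5 in HD. Every FBS culture lay above every culture of the other groups. Gria2 rose by 1.90 ± 0.22 (SE) in FBS against LD, which is 3.74-fold (adjusted p = 7.27e-06). It was 1.53 ± 0.21 lower in RA/Fsk than in FBS (log2 difference -1.53, adjusted p = 5.33e-05). The differences of RA/Fsk (0.37) and HD (0.41) from LD did not pass. A further probe set of Gria2 gave 1.76 ± 0.33 in FBS against LD (adjusted p = 0.000676) and -1.22 ± 0.31 in RA/Fsk against FBS (adjusted p = 0.00936).

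The other AMPA subunits did not pass through their brightest probe set. Gria1 had means of 66.6 in LD, 38.5 in FBS, 52.1 in RA/Fsk and 31.5 in HD. Gria4 had 115 in HD, 72.1 in LD, 63.3 in FBS and 43.6 in RA/Fsk. Its 3 probe sets gave -0.67, -0.83 and -0.92 in RA/Fsk against LD, and none passed (adjusted p = 0.213, 0.0672 and 0.0854). Gria3 had 33.3 in FBS against 18.3 in LD (0.72, adjusted p = 0.273). A dimmer probe set of Gria3 rose in FBS against LD by 1.26 ± 0.44 (adjusted p = 0.0455) and was lower in RA/Fsk than in FBS (-1.56 ± 0.41, adjusted p = 0.012). It read 28.1, 28.6, 31.9 and 43.3 in FBS and 5.8, 10.6 and 17.8 in LD.

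Kainate receptors are built from low-affinity subunits (Grik1, Grik2, Grik3) and from Grik4 and Grik5, which raise the affinity for kainate. Grik4 read 41.5, 33.0, 37.3 and 68.9 in RA/Fsk, 25.6, 7.3, 22.8 and 3.6 in FBS, 28.7, 8.5 and 6.8 in LD, and 12.5, 8.3 and 11.9 in HD. All 4 RA/Fsk cultures lay above the other 10, while the FBS cultures spread widely. Grik4 was 1.49 ± 0.42 higher in RA/Fsk than in FBS (adjusted p = 0.0204). Against LD the difference was 1.47 ± 0.46 (adjusted p = 0.0595). Its other probe set gave 0.32 in RA/Fsk against FBS (adjusted p = 0.316). Without FBS culture 2, FBS culture 4 or RA/Fsk culture 4 the adjusted p was 0.0709, 0.0818 and 0.0659. With the GAPDH measure or the hybridisation controls as a covariate it was 0.0514 and 0.269. Grik5 had means of 264 in RA/Fsk, 217 in FBS, 191 in LD and 170 in HD, and neighbours in that order did not differ past the threshold.

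NMDA receptors need Grin1 and take a Grin2 subunit that sets how long the channel stays open. Grin2a, the subunit that becomes prominent in mature brain, read 113.3, 54.3 and 70.7 in LD, 35.1, 22.4, 21.1 and 33.9 in RA/Fsk, 21.2, 70.8, 61.9 and 64.0 in FBS, and 23.8, 24.5 and 37.8 in HD. No RA/Fsk or HD culture reached the lowest LD culture, and FBS overlapped with both LD and RA/Fsk. Grin2a fell by 1.32 ± 0.37 in RA/Fsk against LD (log2 difference -1.32, adjusted p = 0.0375). The replicate block left the value at -1.33 with an adjusted p of 0.0562. The call also ended without LD culture 1 (adjusted p = 0.161), LD culture 4 (0.0797), FBS culture 3 (0.0503), RA/Fsk culture 2 (0.0878) or RA/Fsk culture 3 (0.0759). In HD the difference from LD was -1.29 ± 0.40 (adjusted p = 0.156). The second probe set of Grin2a gave -0.44 in RA/Fsk against LD (adjusted p = 0.331).

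Grin1 had means of 170 in LD and 138 to 139 in the other groups, and none of its differences passed. Grin2b, Grin2d and Grin3a did not pass either. For Grin2c the brightest probe set gave -0.04 in FBS against LD, while the other fell by 0.89 ± 0.32 (log2 difference -0.89, adjusted p = 0.049). The delta subunit Grid1, a synapse organiser that does not open to glutamate like its relatives, read 26.7, 25.6, 16.5 and 24.7 in FBS and 93.6, 73.2 and 50 in LD. It read 92.9, 70.0, 23.0 and 31.7 in RA/Fsk and 59.8, 53.0 and 54.1 in HD. The FBS cultures lay below all LD and HD cultures, and RA/Fsk overlapped with every group. Grid1 fell by 1.42 ± 0.38 in FBS against LD (log2 difference -1.42, adjusted p = 0.00935), and without LD culture 1 the adjusted p was 0.053. Its difference of 0.90 between RA/Fsk and FBS missed the threshold (adjusted p = 0.0914), and passed with quantile normalisation (0.0399), median centring (0.0323), the replicate block (0.0481) or without RA/Fsk culture 3 (0.0154).

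Of the 7 metabotropic glutamate receptors, 0 passed in any of the 4 comparisons in limma, and 3 had an unadjusted p under 0.05 (Grm2 and Grm6 in HD against LD, Grm3 in RA/Fsk against FBS). Grm4, a receptor that lowers cyclic AMP, was the only one at or above 49.9, with means of 66.5 in HD, 99.0 in LD, 106 in FBS and 94.2 in RA/Fsk. Grm5, which is coupled to calcium release and is known from young astrocytes, had the smallest adjusted p of the family in FBS against LD (-0.64, adjusted p = 0.163). It read 5.7, 9.0, 5.3 and 4.2 in FBS and 7.0, 7.3 and 28.2 in LD, so that LD culture 4 alone stood high. Without it the difference was -0.15.

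Inhibitory receptors are pentamers of GABA-A or glycine receptor subunits. Of the 15 GABA-A subunits 0 passed in any comparison in limma, and at an unadjusted p under 0.05 there were Gabre and Gabrr1 in HD against LD, Gabre in FBS against LD and Gabra3 in RA/Fsk against FBS. The largest difference in the family was that of Gabre, with means of 96.4 in LD and 42.1 in HD (-1.11, adjusted p = 0.203). Gabra3, an alpha subunit, read 76.3, 27.5, 49.8 and 38.0 in RA/Fsk and 15.5, 27.4, 10.8 and 30.5 in FBS (1.02 ± 0.42, adjusted p = 0.113), and the groups overlapped. Gabrb2 had 30.3 in RA/Fsk against 17.7 in FBS (0.64, adjusted p = 0.246), with cultures that did not overlap. The second probe set of Gabrb2 gave 0.07 (adjusted p = 0.945), and there the cultures overlapped.

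Glra3, a glycine receptor alpha subunit, read 3.2, 2.5, 4.3 and 14.1 in RA/Fsk, 20.0, 10.8 and 23.1 in LD, 12.3, 17.1, 11.5 and 13.2 in FBS, and 16.3, 12.1 and 9.4 in HD. Of the RA/Fsk cultures 3 lay below the other 10 cultures, and RA/Fsk culture 4 lay among them. Glra3 fell by 1.13 ± 0.32 in RA/Fsk against LD (log2 difference -1.13, adjusted p = 0.0416), at levels close to the 4.99 that was added before taking logs. The replicate block gave -1.11 (adjusted p = 0.0571), and the call ended in 14 of 26 alternatives, among them leaving out any RA/Fsk culture but culture 4. Against FBS the difference was -0.85 (adjusted p = 0.0622).

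Muscarinic receptors are G protein-coupled receptors for acetylcholine, and Chrm1, Chrm3 and Chrm5 raise calcium while Chrm2 and Chrm4 lower cyclic AMP. Chrm3 read 163.3, 243.6 and 253.2 in LD, 78.5, 93.4, 42.3 and 55.7 in FBS, 171.4, 132.4, 122.2 and 143.4 in RA/Fsk, and 177.4, 86.9 and 176.6 in HD. FBS cultures lay below all LD and RA/Fsk cultures and overlapped with HD culture 2. Chrm3 fell by 1.67 ± 0.28 in FBS against LD (log2 difference -1.67, 3.17-fold, adjusted p = 0.000256). It was 1.07 ± 0.26 higher in RA/Fsk than in FBS (adjusted p = 0.00775). The differences from LD of -0.60 in RA/Fsk and -0.61 in HD did not pass. The second probe set, at 41.7 in LD, differed by -0.44 in FBS (adjusted p = 0.337), and by 0.20 in RA/Fsk against FBS (adjusted p = 0.704). With the mean over probe sets RA/Fsk against FBS was 0.64 (adjusted p = 0.0652), and with the hybridisation controls as a covariate 1.01 (adjusted p = 0.0777), so both ended that call.

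Chrm1 read 93.7, 36.0 and 77.5 in LD, 22.2, 39.0, 30.0 and 28 in FBS, 30.5, 49.0, 17.6 and 29.3 in RA/Fsk, and 31.1, 48.4 and 35.8 in HD. LD cultures 1 and 4 stood above every other culture, and LD culture 3 lay among them. Chrm1 fell by 1.02 ± 0.35 in FBS against LD (log2 difference -1.02, adjusted p = 0.0429), and the call ended in 12 of 26 alternatives, among them leaving out LD culture 1 (adjusted p = 0.192) or LD culture 4 (0.141). Against LD, RA/Fsk differed by -0.99 (adjusted p = 0.101). The second probe set of Chrm1 gave 0.28 in FBS against LD (adjusted p = 0.635).

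Chrm5 had means of 42.5 in LD, 16.7 in FBS and 45.5 in RA/Fsk, and its difference of 1.22 between RA/Fsk and FBS did not pass (adjusted p = 0.111). Its cultures spread from 13.3 to 73.0 in LD and from 16.4 to 74.5 in RA/Fsk. Chrm4 had means of 53.0 in LD, 79.3 in FBS and 84.7 in RA/Fsk, with no overlap between LD and either treatment, and differences of 0.54 (adjusted p = 0.198) and 0.63 (adjusted p = 0.218). Chrm2 stayed between 17.5 and 29.2 in all 4 group means.

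**Figure D4:**
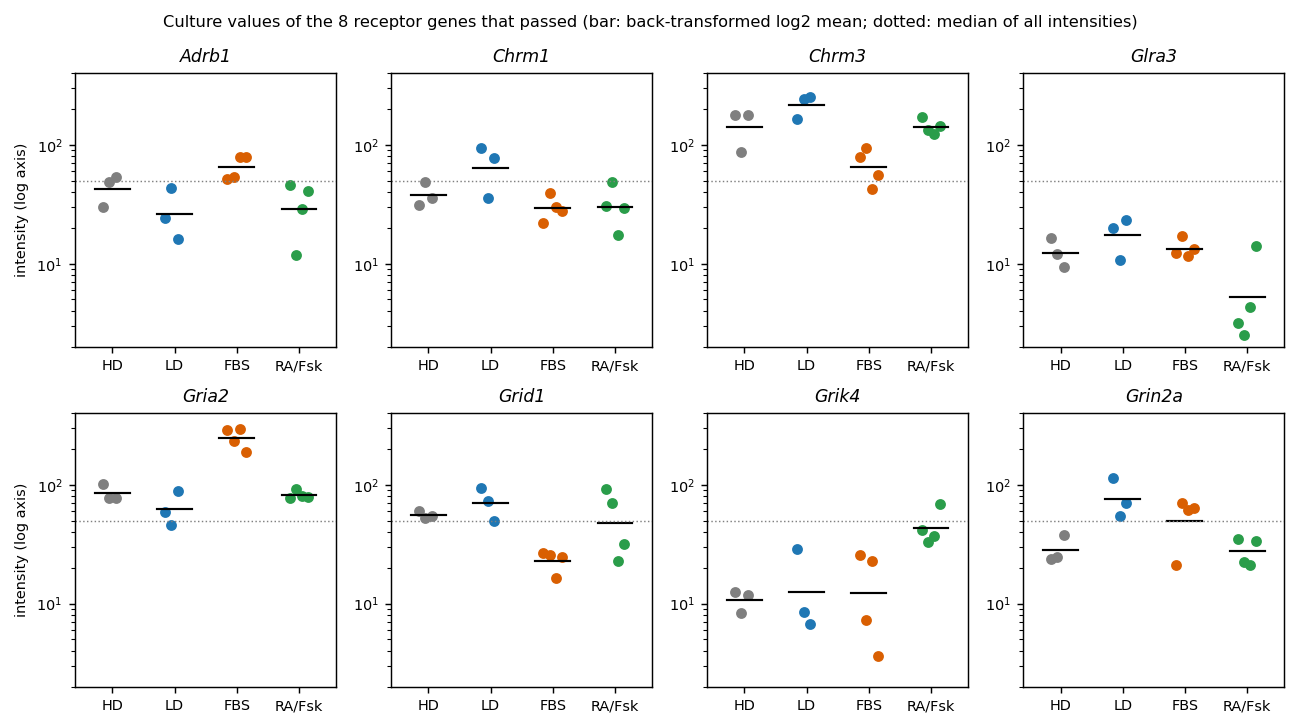
Intensity per culture (log axis, arbitrary units) of the 8 receptor genes that passed in at least 1 comparison, with one point per culture, a bar at the group mean and a dotted line at 49.9. The 4 FBS cultures of Gria2 stand above all other cultures, the 4 RA/Fsk cultures of Grik4 stand above the other 10, and single cultures carry much of the spread in Chrm1, Glra3 and Grin2a.

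Nicotinic receptors are acetylcholine-gated channels, and 0 of the 15 subunits passed in limma through their brightest probe set. Chrnb3 in FBS against LD was the 1 subunit with an unadjusted p under 0.05. Chrnb3, a subunit of some neuronal receptors, read 42.6, 45.4 and 18.3 in LD and 22.3, 2.3, 10.7 and 25.1 in FBS (-1.13 ± 0.48, adjusted p = 0.102), and the groups overlapped. Chrng, the fetal subunit of the muscle receptor, had means of 159 in HD, 186 in LD, 183 in FBS and 177 in RA/Fsk, and differed by at most 0.22 between LD and another group. Of the 9 striated muscle markers measured, 1 rose in FBS against LD (Tnnt2, 1.11), with 2 to 4 of the 9 at or above 49.9 by group. Group means ran from 166 to 256 for Myh3, from 41.5 to 95.3 for Tnnt2, from 47.6 to 67.7 for Ckm and from 43.6 to 59.3 for Tnni1, while Myog, Myod1 and Des were at most 12.5. Of the 3 probe sets of Chrna7, which forms a calcium-permeable receptor, the second fell in FBS against LD (-1.09 ± 0.32, adjusted p = 0.016) and was higher in RA/Fsk than in FBS (0.87 ± 0.29, adjusted p = 0.0499). The other probe sets of Chrna7 gave 0.13 and 0.28 in FBS against LD.

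Of the 13 serotonin receptors 0 passed in limma through their brightest probe set, and at an unadjusted p under 0.05 there were 2 in HD against LD, 4 in FBS against LD and 2 in RA/Fsk against FBS. Htr6, which raises cyclic AMP, read 104.8, 72.2 and 64.0 in LD and 68.2, 52.4, 32 and 16.1 in FBS (-0.97 ± 0.39, adjusted p = 0.0833). The ion channel subunit Htr3a had means of 94.6 in LD and 62.4 in FBS (-0.56, adjusted p = 0.0859), with cultures that did not overlap. The other probe sets of Htr3a gave 0.15 (adjusted p = 0.82) and 0.08 (adjusted p = 0.92) in FBS against LD. Htr5b read 79.0, 100.1, 77.2 and 86.9 in FBS and 58.7, 64.0, 5.2 and 70.6 in RA/Fsk (-1.07 ± 0.46, adjusted p = 0.135), where RA/Fsk culture 3 stood far below the rest. Htr4 had 3 probe sets, of which the second fell in FBS against LD (-1.38 ± 0.40, adjusted p = 0.0171), while the brightest gave -0.71 (adjusted p = 0.391).

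**Figure D5:**
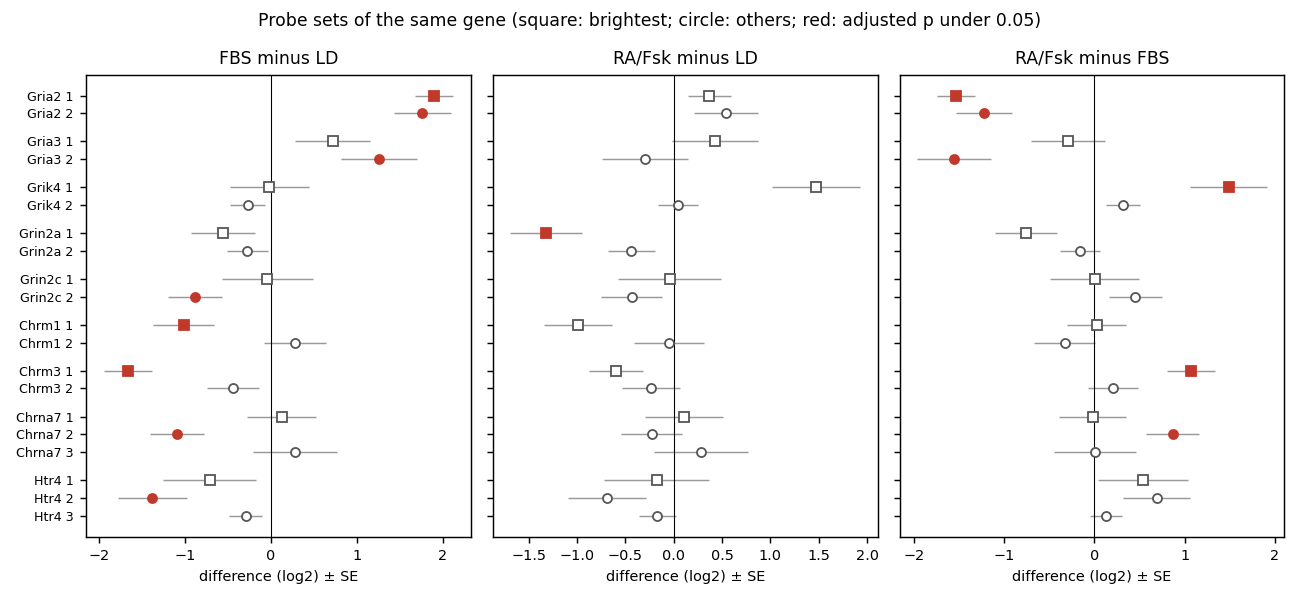
Difference (log2) with its SE for each probe set of the genes that have several and at least 1 that passed, in 3 comparisons, with squares for the brightest probe set, circles for the others and red for those that passed. Both probe sets of Gria2 passed in FBS minus LD and in RA/Fsk minus FBS, and for the other 8 genes 1 probe set passed and the rest did not.

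Adrenergic receptors answer noradrenaline and adrenaline. Adrb1, which raises cyclic AMP, read 51.9, 53.4, 79.6 and 78.7 in FBS, 24.3, 43.5 and 16.0 in LD, 46.1, 11.9, 28.8 and 40.9 in RA/Fsk, and 30.2, 48.5 and 53.4 in HD. Every FBS culture lay above all LD and RA/Fsk cultures, and FBS overlapped with HD. Adrb1 rose by 1.17 ± 0.39 in FBS against LD (adjusted p = 0.0357). The call ended with the GAPDH measure as a covariate (adjusted p = 0.19), quantile normalisation (0.0529) and median centring (0.0571), and when 1 culture was left out, for FBS cultures 3 (0.0908) and 4 (0.0867) and for LD cultures 1 (0.091) and 4 (0.163). RA/Fsk differed from FBS by -1.03 (adjusted p = 0.0575).

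Of the 6 alpha-adrenergic receptors 0 passed in limma, with 2 at an unadjusted p under 0.05 in HD against LD (Adra1b and Adra2b). All 6 differences from LD were below 0 in HD, in FBS and in RA/Fsk, which share the LD cultures. In that order 80.5%, 70.1% and 64.4% of the 87 receptor genes lay below 0, against 59%, 55.7% and 53.3% of all genes. Of the 6 NMDA subunits 6, 6 and 5 did. Adra1b read 106.6, 82.3 and 83.0 in LD, 60.3, 68.1, 61.3 and 78.5 in FBS, and 68.3, 77.4, 47.8 and 81.5 in RA/Fsk. It read 67.5, 57.7 and 53.4 in HD. Every LD culture of Adra1b lay above all other cultures, with a difference of -0.41 ± 0.22 in FBS (adjusted p = 0.218). Of the 5 dopamine receptors 0 passed in limma, and 0 had an unadjusted p under 0.05. Drd3 had means of 204 in HD, 263 in LD, 322 in FBS and 298 in RA/Fsk through its brightest probe set. Its second probe set had only 3.9 in HD, 4.6 in LD, 2.8 in FBS and 6.5 in RA/Fsk. Drd1, the receptor that raises cyclic AMP, differed by 0.62 between RA/Fsk and FBS (adjusted p = 0.234).

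In total the 87 genes had 131 probe sets. Of the 44 that were not the brightest of their gene, 5 passed in FBS against LD (Chrna7, Gria2, Gria3, Grin2c and Htr4), 11.4% against 25.5% of all probe sets. The 3 that passed in RA/Fsk against FBS (Chrna7, Gria2 and Gria3) are 6.82% against 18.4%. None of the 44 passed in HD against LD or RA/Fsk against LD in limma, where 5 and 4 had an unadjusted p under 0.05. Gria2 was the only gene with more than 1 probe set that passed in the same comparison.

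Genes that serve the receptors were counted from further lists, to be read against the shares of all genes. Those were 13.6% higher and 12.3% lower in FBS against LD, 5.62% and 3.32% in RA/Fsk against LD, and 8.95% and 10.4% in RA/Fsk against FBS. Of 36 measured proteins that anchor or traffic receptors, 6 rose and 4 fell in FBS against LD (list median -0.02 against -0.07 over all genes). Grina, a membrane protein named for the NMDA receptor, rose by 2.23 ± 0.22 (adjusted p = 1.01e-06), Homer3 by 1.38 and Gabarap by 0.63, while Homer2, a scaffold of metabotropic glutamate receptors, fell (-0.81). In RA/Fsk against LD 3 rose and 2 fell (0.01 against -0.03), and Agrn, the organiser of nicotinic receptors at the muscle endplate, fell (-1.48 ± 0.18, adjusted p = 7.03e-05). Grina (1.26), Gabarap (0.55) and Homer2 (-0.83) passed there too, in the same direction as in FBS against LD. In RA/Fsk against FBS 2 were higher and 4 lower (0.02 against 0.05), with Agrn at -1.90 and Dlg1, a scaffold of glutamate receptors, at -1.24.

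Of 34 measured enzymes and carriers that make, pack or clear transmitters, 5 rose and 1 fell in FBS against LD (list median -0.18 against -0.07). Glul, which turns glutamate into glutamine, rose by 1.76 ± 0.17 (adjusted p = 9.3e-07), the glutamate carrier Slc1a3 by 1.97, Glud1, which oxidises glutamate, by 1.22 and Abat, which breaks down GABA, by 1.78. In RA/Fsk against LD 2 rose and 1 fell (-0.02 against -0.03), with Glul at 1.40, Abat at 2.10 and the monoamine packer Slc18a1 at -1.10. Slc18a1 was also the 1 that fell in FBS against LD (-0.89). In RA/Fsk against FBS 0 were higher and 3 lower (0.10 against 0.05): Glud1, Slc1a3 and Gad1, which makes GABA.

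Of 15 measured kinases, arrestins and RGS proteins that switch off G protein-coupled receptors, 3 fell in FBS against LD (Rgs19, Arrb2 and Grk6, list median -0.17 against -0.07) and 1 in RA/Fsk against LD (Arrb2, -0.73, list median -0.16 against -0.03). None passed in RA/Fsk against FBS in limma, where 3 had an unadjusted p under 0.05. Of 58 measured receptors for purines, peptides and other ligands outside the 87, 2 rose (P2rx4 by 1.06, P2rx1 by 2.06) and 2 fell (Adora2b and Sstr2) in FBS against LD, with a list median of -0.09 against -0.07. In RA/Fsk against LD 2 rose (P2rx4 by 1.14, Adora2a by 1.11), and in RA/Fsk against FBS Adora1 (1.70) and P2ry12 (1.04) were higher and P2rx1 (-2.52) lower. None of these 4 lists had a member that passed in HD against LD in limma, and at an unadjusted p under 0.05 they had 6, 3, 3 and 4 in the order given.

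The labelled cell types were set against marker genes. Of 9 astrocyte markers measured, 4 rose in FBS against LD (S100b, Glul, Slc1a3 and Aldoc), and 3 of these rose in RA/Fsk against LD as well (S100b, Aldoc and Glul). Their summed level ran from 6005 to 8023 in FBS, from 8016 to 9367 in RA/Fsk, from 2035 to 2631 in LD and from 3822 to 5016 in HD. Aqp4, Gja1, Aldh1l1 and Sparcl1, which also mark astrocytes, were at most 16.7 in every group mean. Of 11 neuron markers 1 rose (Scg2, 2.60 ± 0.38) and 1 fell (Gap43, -0.88 ± 0.21) in RA/Fsk against LD, and their sums overlapped at 1468 to 1861 in RA/Fsk and 1714 to 1798 in LD. As measured here, the sums of the neuron list did not set the cultures labelled neurons apart from the progenitors. Of the 18 markers listed, 11 were measured. Map2 (614 in LD, 707 in RA/Fsk) and Gap43 (534 and 287) weigh most in the sums, where Scg2 (5.3 and 57.4) hardly shows. In FBS 1 neuron marker rose (Nefm, 2.26) and 1 fell (Elavl4, -0.49).

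Of 8 markers of oligodendrocytes and their precursors, Mbp (2.45) and Cnp (0.78) rose in RA/Fsk against LD, and in FBS Mbp rose (1.46) and Pdgfra fell (-2.51). Their sums were 2766 to 4774 in RA/Fsk, 1683 to 2132 in FBS, 2120 to 2869 in LD and 2235 to 2763 in HD. Of 7 endothelial and mural markers Tagln alone rose in FBS (3.45), with sums of 509 to 908 in FBS and 254 to 319 in LD. Of 6 progenitor markers 0 rose and 3 fell in FBS against LD (Fabp7, Notch1 and Hes5). Vim, Hes1 and Nes did not pass, with means of 4808, 221 and 1282 in FBS and 3837, 130 and 1298 in LD. The progenitor sums overlapped at 6697 to 7123 in FBS and 5307 to 7521 in LD. None of 9 microglial, 6 fibroblast or 6 Schwann and neural crest markers passed in any comparison in limma, with 3, 2 and 5 values at an unadjusted p under 0.05 over the 4 comparisons, and no value of any marker list was at 0. The part of these shifts in the receptor differences was not tested.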

How the data were processed

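Per the submitters' deposited table, each of 20 arrays has a linear intensity for 8799 probe sets. How the authors corrected background, summarised probes and scaled is not given in the sources used here. Their trimmed means (2% left out at each end) lie between 200.3 and 200.5, and array medians between 41 and 57.5. Precision is limited by how few arrays there are.

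Without the 59 controls, log2(intensity + 4.99), an offset of 10% of the median positive intensity, was fitted over all 4 groups with limma 3.58.1 in R 4.3.3 (intensity trend, 10 residual degrees of freedom, Benjamini-Hochberg over 8740 probe sets). Arrays of a culture were averaged first (lowest correlation 0.951). All 87 symbols were found in the RefSeq gene table. Named are all receptor genes that passed, for families without one the member with the smallest adjusted p, and up to 4 list members that passed with the smallest adjusted p; other receptor genes were named after their values were seen. Members and lists were chosen with earlier results of these data known. The fit was tested on simulated data. Deviations of RA/Fsk and LD cultures of a shared number had r = 0.108 to 0.327 over 3 pairs. For other groups at least 1 pair was under 0.1. Cultures of different numbers were not correlated for comparison, so whether the numbers pair cultures is not settled. The main fit left pairing out, and the replicate block is an alternative to it. Alternatives varied the pseudocount, normalisation, filter, covariates, probe set rule, array averaging and cultures left out.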

Additional observations from a re-analysis of the deposited data

Results flagged for a closer look

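Among 28 groups of 4 cultures, the FBS and RA/Fsk cultures of the genes named by rule, 2 held a culture whose gap to its nearest neighbour, as a share of the group's range, exceeded Dixon's critical value for 4 values, which chance exceeds in about 1 in 20 groups. Grid1 in FBS culture 3 read 16.5, the nearest other FBS culture read 24.7, and the gap was 0.833 of the range. The fall of Grid1 against LD still passed without that culture. Grin2a in FBS culture 1 read 21.2, where the nearest other FBS culture read 61.9, a gap of 0.883 of the log2 range. That culture is the one FBS value of Grin2a that lies within the range of the RA/Fsk cultures. Without it, Grin2a was lower in RA/Fsk than in FBS (-1.12, adjusted p = 0.0182).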

How the results depend on the processing

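The counts of receptor genes that passed were 0 in HD against LD, 5 in FBS against LD, 2 in RA/Fsk against LD and 3 in RA/Fsk against FBS. With each array as its own sample, which counts arrays of a culture as independent, they were 3, 11, 3 and 6. In FBS against LD the count was 8 with quantile normalisation and 3 of 30 genes once the dimmer 50% of probe sets were dropped. In RA/Fsk against LD it was 0 with those probe sets dropped, 0 with only the 2 groups fitted and 1 with the array labelled 3r alone for FBS culture 3. Leaving out 1 culture gave 3 to 8 in FBS against LD (3 without LD culture 1 or 4 or FBS culture 3 or 4, and 8 without LD culture 3 or RA/Fsk culture 3). It gave 0 to 3 in RA/Fsk against LD (0 without LD culture 4, FBS culture 3, or RA/Fsk culture 2 or 3, and 1 without HD culture 2, LD culture 1, or FBS culture 1 or 2), 2 to 4 in RA/Fsk against FBS and 0 in HD against LD.

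With the 9 hybridisation controls as a covariate, an alternative chosen after seeing the data, 1 receptor gene passed in FBS against LD (Adrb1, 2.93), 0 in RA/Fsk against LD and 2 in RA/Fsk against FBS. Over all probe sets the calls in FBS against LD went from 2225 to 454. Gria2 then differed by 1.43 ± 0.51 from LD (adjusted p = 0.129), Chrm3 by -1.51 ± 0.67 (0.234) and Grid1 by -0.09 ± 0.81 (0.978). The other 26 alternatives kept the calls of Gria2 and Chrm3 in FBS against LD, and all 27 kept that of Gria2 in RA/Fsk against FBS. No named gene that passed changed sign. Median centring moved the median of all probe sets from -0.08 to 0.02 in HD against LD and from 0.06 to 0.16 in RA/Fsk against FBS.

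With the replicate number as a block, the counts were 0 in HD against LD, 6 in FBS against LD, 2 in RA/Fsk against LD and 4 in RA/Fsk against FBS, where Grid1 also passed (adjusted p = 0.0481). On precision, the median SE of a difference over the 4 comparisons was 0.33 to 0.38 for receptor genes and 0.25 to 0.29 for all genes.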
